A study of Mus musculus with 22 samples.

Results

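The cytochrome P450 genes measured here are the 97 genes whose single gene symbol starts with Cyp and a digit, of 22180 genes with a single symbol on the array. Cyp51 was left out of the rule, and where a gene had several probe sets the one with the highest mean over all 22 arrays was used. The Cyp2 family had 50 members, the Cyp4 family 20 and the other families 27. Another 6 probe sets matched several genes at once and were not used, so Cyp4a10, Cyp4a32, Cyp2c67, Cyp3a41a and Cyp3a41b have no value of their own here.

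Cytochrome P450 enzymes are haem proteins that insert oxygen into fats, sterols, hormones and foreign chemicals. They take their electrons from a reductase, cytochrome b5 or, in mitochondria, a ferredoxin. Enzymes of the Cyp1, Cyp2 and Cyp3 families are best known for drug and toxin breakdown, and several are switched on by sensors of foreign chemicals: the aryl hydrocarbon receptor Ahr for Cyp1 genes and the nuclear receptor CAR (Nr1i3) for Cyp2b genes. Many Cyp4 enzymes oxidise the far end of fatty acids, and the Cyp4a genes are the classic targets of PPARα in mouse liver. In fat tissue these enzymes act on fatty acids, eicosanoids, retinoids and sterols.

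The tissue was inguinal white fat, a depot under the skin in which cold brings out heat-producing adipocytes. Male PPARα-null mice lacked the fatty acid receptor encoded by Ppara in every tissue and were set against wild-type (WT) mice, both on a C57BL/6 background after more than 10 generations of backcrossing. There were 5 null mice and 5 WT mice at 5 °C for 10 days, and 6 null mice and 6 WT mice at 28 °C, with 1 array per mouse. All were 3 to 4 months old at the start and spent 5 weeks at 28 °C. The cold groups then had 1 week at 21 °C before the 10 days at 5 °C. For the 28 °C groups 10 further days at 28 °C are given, and no step at 21 °C. Of 10 mice housed per group these 22 were arrayed, and the labels do not say whether they were littermates. The study asks whether PPARα is needed for the response of this depot to cold.

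All values are log2 expression values as deposited, so a difference of 1 is a doubling of the signal. Arrays have no read depth, and precision is set by their number and by the signal over background. Each array's lower quartile over 41345 probe sets lay between 2.83 and 2.91, and array medians lay between 4.16 and 4.25. The adipocyte genes Fabp4, Cidec, Plin1, Lep and Adipoq had means of 10.05 to 12.62. The pads differed in other cells: the mean level of 12 skeletal muscle genes ran from 5.67 to 9.47 over the arrays and that of 11 B and T cell genes from 4.04 to 7.99. The single Ppara probe set gave 5.77, 5.99, 5.99, 6.66 and 7.10 in null mice at 5 °C and 6.13, 6.48, 6.50, 6.88 and 6.98 in WT mice at 5 °C. At 28 °C it ran from 4.14 through a median of 4.91 to 5.45 in null mice and from 4.42 through 4.74 to 5.00 in WT mice. The genotypes overlapped at both temperatures. No source used here says whether these probes fall inside or outside the disruption, so they check no genotype label.

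Most P450 genes gave little signal in this fat. Over all arrays 28 of the 97 members, 28.9%, had a mean of 4 log2 units or more, against 12769 of 22180 genes, 57.6%, and members under 4 are treated as near background. By family these were 11 of 50 Cyp2 genes, 8 of 20 Cyp4 genes and 9 of 27 others. The members just above the line were Cyp2ab1 (4.01), Cyp46a1 (4.05) and Cyp11a1 (4.10), and those just below it were Cyp2s1 (3.97), Cyp2a22 (3.95) and Cyp4x1 (3.58). All 7 measured Cyp3 genes, drug-metabolising enzymes of liver and gut, lay between 1.73 and 2.77. Of 5 measured steroid hormone synthesis genes only Cyp11a1 reached 4.

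The brightest members were Cyp2e1 (mean 11.80), which oxidises ethanol and acetone, and Cyp2f2 (9.58), known in mouse for naphthalene activation in lung. The Cyp4 genes Cyp4b1 (8.42) and Cyp4v3 (8.34), the mouse counterpart of the fatty acid hydroxylase CYP4V2 in human, came next, with Cyp20a1 (8.18), an enzyme of unknown substrate. They were followed by Cyp27a1 (7.86), Cyp2c55 (7.83), Cyp4f13 (7.10), Cyp2d22 (7.02) and Cyp2u1 (6.94). A probe set's brightness also depends on its probes, so these means do not rank the genes by RNA amount.

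**Figure D1:**
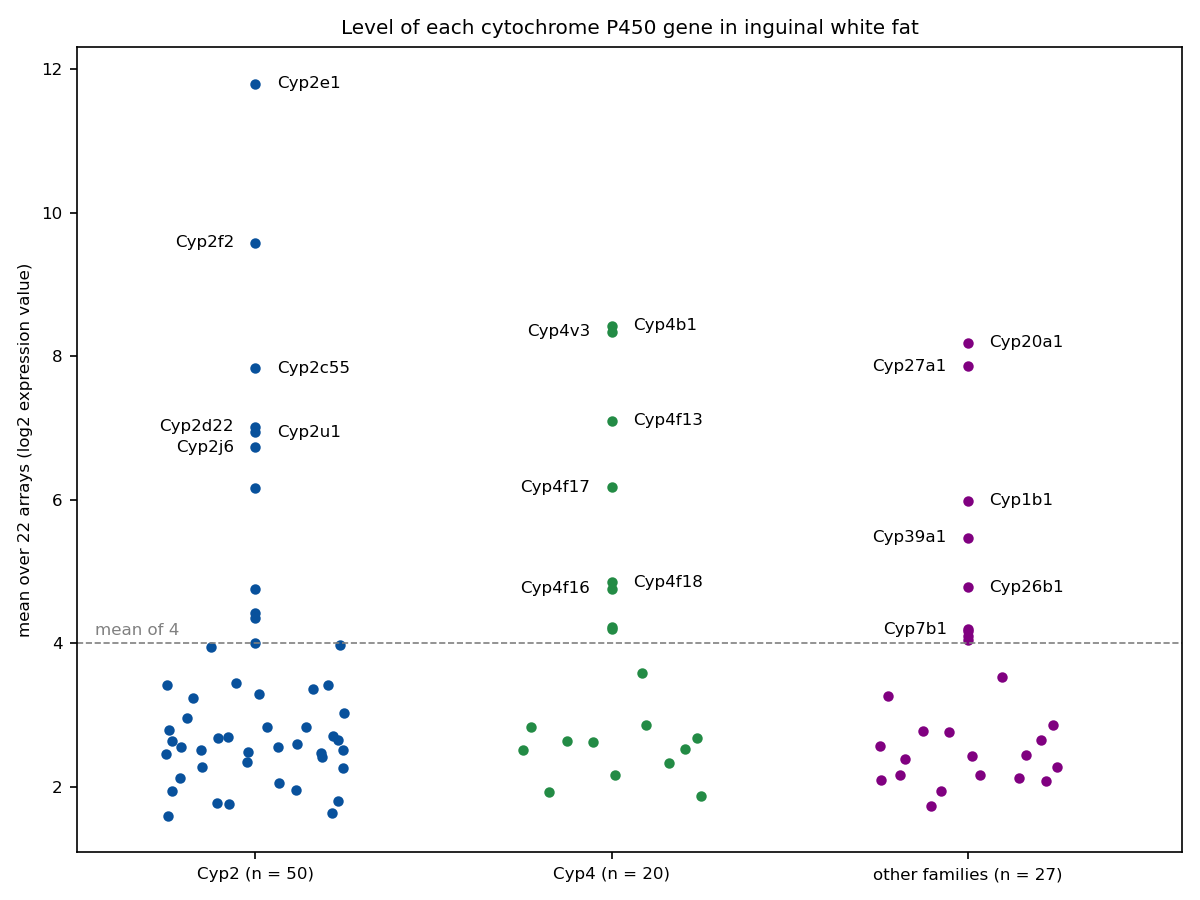
Mean log2 expression value over 22 arrays (vertical axis) of each of the 97 cytochrome P450 genes, 1 point per gene, in 3 columns for the Cyp2 family (50), the Cyp4 family (20) and the other families (27). The dashed line marks a mean of 4, above which 28 genes lie, and the 6 brightest of each column are named, with points under the line spread sideways only for legibility.

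In the test for cold 5 members passed in both genotypes: Cyp2u1, Cyp1a1 and Cyp2b10 upward, Cyp27a1 and Cyp1b1 downward. The share of all genes that passed in both is not given here, so this count is only a description. The test was limma's, with p adjusted over all genes by Benjamini-Hochberg and a threshold of 0.05. In null mice 6 of 97 members passed, a share of 6.19% against 13.2% of all genes. In WT mice 8 of 97 passed, 8.25% against 16.7% of all genes. In null mice Cyp2u1, Cyp1a1, Cyp2b10 and Cyp2f2 rose (4 of 97, background 6.88%) and Cyp27a1 and Cyp1b1 fell (2 of 97, background 6.33%). In WT mice Cyp2u1, Cyp1a1, Cyp2b10 and Cyp2c55 rose (4 of 97, background 8.35%) and Cyp27a1, Cyp1b1, Cyp39a1 and Cyp46a1 fell (4 of 97, background 8.3%). With each array's median subtracted first, 6 members were higher and 3 lower in WT mice at 5 °C. The share of all genes with that scaling is not given here, so this count too is only a description.

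Of the 69 members under 4, 1 passed in null mice and 1 in WT mice, Cyp2b10 in each case. Of all genes at any level 13.2% passed in null mice and 16.7% in WT mice. The share of genes under 4 alone is not given here, so nothing is read from this count. Among the 28 members with a mean of 4 or more, 5 passed in null mice, 17.9% against 21.7% of all genes that bright, and 7 passed in WT mice, 25% against 26.6%. Cyp1a1 reached a mean of 4 only through its 5 °C arrays, so this filter is not independent of the cold effect and nothing is read from these shares. The median cold effect over the 97 members was 0.08 in null mice and 0.04 in WT mice, and over all genes it was −0.003 in null mice and 0.009 in WT mice.

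**Figure D2:**
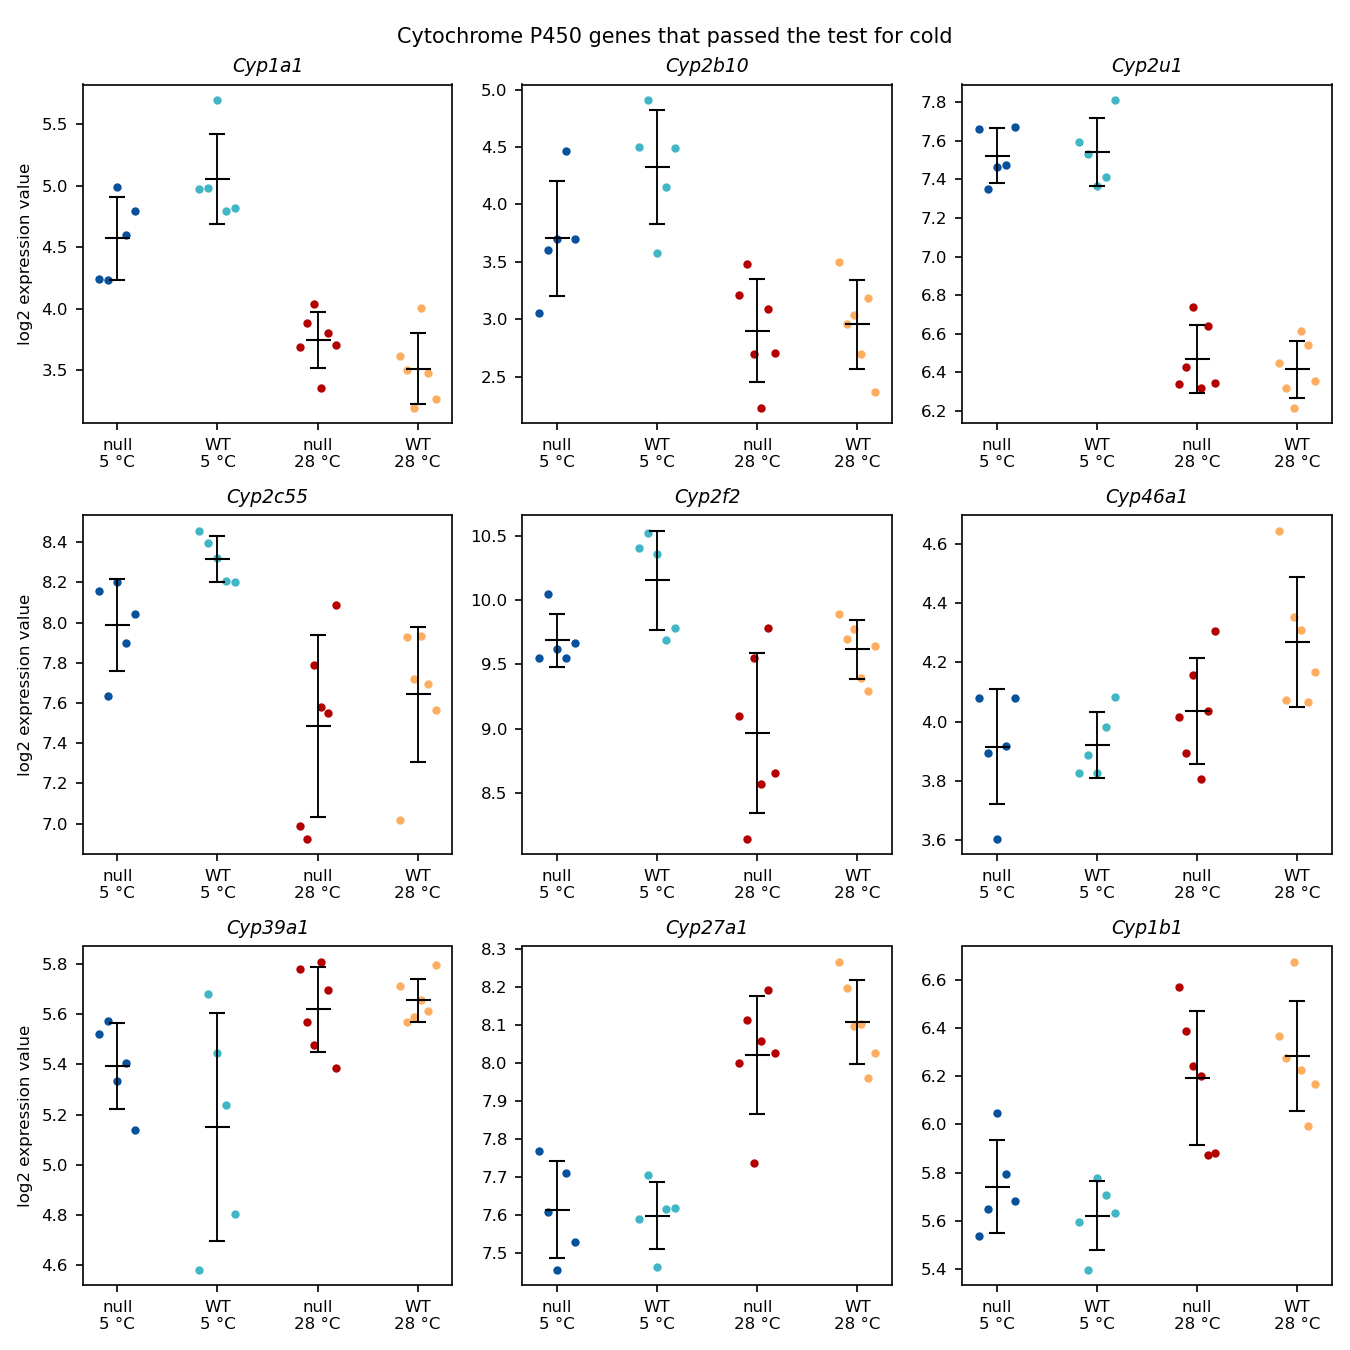
Log2 expression value (vertical axis, its range set per panel) of the 9 cytochrome P450 genes that passed the test for cold in at least 1 genotype, with a point per array and bars for the mean ± SD, for null mice at 5 °C (n = 5), WT mice at 5 °C (n = 5), null mice at 28 °C (n = 6) and WT mice at 28 °C (n = 6). In Cyp2u1 and Cyp1a1 every cold array lies above every 28 °C array of its genotype, while Cyp27a1 and Cyp1b1 lie lower in the cold.

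Cyp2u1, which hydroxylates long-chain fatty acids, had the smallest p of all members in each genotype. It read 7.35, 7.46, 7.47, 7.66 and 7.67 in null mice at 5 °C, and 7.37, 7.41, 7.53, 7.60 and 7.81 in WT mice at 5 °C. At 28 °C it ran from 6.32 through a median of 6.39 to 6.74 in null mice and from 6.22 through 6.40 to 6.61 in WT mice. Every cold mouse was above every 28 °C mouse of either genotype. The cold effect was 1.05 in null mice (SE 0.10, adjusted p = 1.62e-07), a 2.08-fold increase, and 1.13 in WT mice (SE 0.10, adjusted p = 5.49e-08), a 2.19-fold increase. Their difference, null minus WT, was −0.07 with a 95% interval from −0.37 to 0.22.

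Cyp1a1, the enzyme that oxidises polycyclic aromatic compounds and the best known target of Ahr, rose in both genotypes. It read 4.24, 4.24, 4.60, 4.79 and 4.99 in null mice at 5 °C, and 4.80, 4.82, 4.98, 4.98 and 5.70 in WT mice at 5 °C. At 28 °C it ran from 3.36 through a median of 3.76 to 4.04 in null mice and from 3.20 through 3.49 to 4.01 in WT mice. Cold and 28 °C mice did not overlap in either genotype, and 10 of the 12 arrays at 28 °C were under 4, near background. The effect was 0.83 in null mice (SE 0.18, adjusted p = 0.00227) and 1.54 in WT mice (SE 0.18, adjusted p = 1.47e-06), which is 1.77-fold and 2.92-fold in signal, and a 28 °C level this near background can understate the fold. The difference of the 2 effects, null minus WT, was −0.72 (SE 0.25, interval −1.23 to −0.20), with a limma unadjusted p of 0.00859 and an adjusted p of 0.963, so it did not pass. The receptor gene Ahr itself averaged 7.14 over all arrays and did not pass in either genotype, at −0.03 in null mice and 0.15 in WT mice.

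Cyp2b10, a drug-metabolising enzyme and the usual readout of CAR activity in mouse liver, stayed dim with a mean of 3.42. It read 3.06, 3.60, 3.70, 3.70 and 4.47 in null mice at 5 °C, and 3.58, 4.15, 4.49, 4.50 and 4.91 in WT mice at 5 °C. At 28 °C it ran from 2.23 through a median of 2.90 to 3.48 in null mice and from 2.37 through 2.99 to 3.5 in WT mice. The WT groups did not overlap and the null groups did. The effect was 0.80 in null mice (SE 0.26, adjusted p = 0.0422) and 1.37 in WT mice (SE 0.26, adjusted p = 0.000581). Levels this near background can understate a fold change. The null call was lost (adjusted p 0.0503 to 0.146) without null 5 °C mouse 2, 3, 4 or 5, null 28 °C mouse 3, 4 or 6, or WT 28 °C mouse 2. CAR (Nr1i3) lay at 3.30 and the related sensor PXR (Nr1i2) at 2.55, both near background.

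Cyp1b1, a second Ahr target that also oxidises estradiol and retinoids, fell in both genotypes. It read 5.54, 5.65, 5.68, 5.79 and 6.05 in null mice at 5 °C, and 5.40, 5.59, 5.63, 5.71 and 5.78 in WT mice at 5 °C. At 28 °C it ran from 5.87 through a median of 6.22 to 6.57 in null mice and from 6.00 through 6.25 to 6.68 in WT mice. Null mouse 3 at 5 °C overlapped the 28 °C group, and the WT groups did not overlap. The effect was −0.45 in null mice (SE 0.13, adjusted p = 0.0233) and −0.66 in WT mice (SE 0.13, adjusted p = 0.000859). The null call was lost without null 5 °C mouse 1, 2 or 5 or null 28 °C mouse 1 or 2 (adjusted p 0.0525 to 0.0731), and without the 2 arrays highest in muscle markers (0.0719).

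The start regions of these genes are shown because Cyp1a1, Cyp2b10 and Cyp1b1 are textbook targets of chemical sensors yet moved in different directions, with Cyp2f2 beside them as the brightest member that passed. Each runs 5′ to 3′ on the gene's own strand from 250 bases before the annotated start to 50 after it, from RefSeq on GRCm38.p6. They lie at chr9:57697363-57697662 (plus strand, Cyp1a1), chr7:25897408-25897707 (plus, Cyp2b10), chr17:79715012-79715311 (minus, Cyp1b1) and chr7:27119705-27120004 (plus, Cyp2f2). The Cyp1a1 start used by the table lies 9685 bases inside the gene's RefSeq span, so it is not the first of that span, while the other 3 starts are the ends of theirs. Capitals mark 2 motifs, each searched on both strands, so that some stretches show the reverse complement. The first is GCGTG, the core letters bound by Ahr with Arnt. The second is AGGTCA, the core letters of many nuclear receptor sites, and the matches of both do not overlap here.
Cyp1a1: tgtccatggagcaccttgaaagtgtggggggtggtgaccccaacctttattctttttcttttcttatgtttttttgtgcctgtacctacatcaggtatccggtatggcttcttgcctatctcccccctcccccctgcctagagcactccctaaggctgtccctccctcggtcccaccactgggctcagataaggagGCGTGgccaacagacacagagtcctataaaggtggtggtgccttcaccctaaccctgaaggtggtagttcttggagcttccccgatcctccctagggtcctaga
Cyp2b10: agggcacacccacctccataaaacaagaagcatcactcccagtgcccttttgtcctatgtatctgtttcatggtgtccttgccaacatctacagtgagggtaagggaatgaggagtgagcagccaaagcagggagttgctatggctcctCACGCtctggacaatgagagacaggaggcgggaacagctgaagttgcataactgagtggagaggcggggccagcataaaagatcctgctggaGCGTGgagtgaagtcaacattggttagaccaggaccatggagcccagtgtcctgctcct
Cyp1b1: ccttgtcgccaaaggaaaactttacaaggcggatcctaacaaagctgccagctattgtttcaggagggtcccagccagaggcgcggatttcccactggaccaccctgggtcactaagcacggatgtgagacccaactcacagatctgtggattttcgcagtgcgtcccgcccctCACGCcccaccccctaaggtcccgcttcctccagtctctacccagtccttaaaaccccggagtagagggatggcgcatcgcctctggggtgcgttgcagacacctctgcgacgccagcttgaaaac
Cyp2f2: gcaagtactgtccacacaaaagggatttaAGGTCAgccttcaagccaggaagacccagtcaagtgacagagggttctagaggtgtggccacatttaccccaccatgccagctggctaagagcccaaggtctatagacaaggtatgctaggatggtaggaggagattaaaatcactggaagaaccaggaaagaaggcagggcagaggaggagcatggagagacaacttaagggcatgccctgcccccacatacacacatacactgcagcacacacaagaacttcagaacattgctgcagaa

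GCGTG on either strand was found 54 bases before the start in Cyp1a1, 101 and 9 bases before it in Cyp2b10, and 76 bases before it in Cyp1b1. It occurs in 32.4% of 32851 promoter windows of the same length, so a match is common. Cyp46a1, which fell in WT mice, held it 4 times in a window with 70.3% G and C. AGGTCA on either strand was found only in Cyp2f2 among these 4, 221 bases before the start, and occurs in 16.3% of windows. Cyp1a1 and Cyp2c55 held TATAAA, also searched on both strands, 30 and 29 bases before the start, and 13.6% of windows hold it. Of the 10 members that passed any comparison, 7 had a window in the table. A match is a description of these letters and not a site, and no match says only that these letters are missing from the window.

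Cyp2f2 rose with cold in null mice and did not pass in WT mice. It read 9.55, 9.55, 9.62, 9.66 and 10.05 in null mice at 5 °C, and 9.69, 9.78, 10.36, 10.41 and 10.53 in WT mice at 5 °C. At 28 °C it ran from 8.14 through a median of 8.88 to 9.78 in null mice and from 9.29 through 9.67 to 9.89 in WT mice. The null mice at 28 °C were spread over more than the other groups, with an SD of 0.63. The SD was 0.21 in null mice at 5 °C, 0.39 in WT mice at 5 °C and 0.23 in WT mice at 28 °C. Cold and 28 °C mice overlapped in both genotypes. The effect was 0.72 in null mice (SE 0.23, adjusted p = 0.0415) and 0.54 in WT mice (SE 0.23, adjusted p = 0.125), with a difference of 0.18 and an interval from −0.49 to 0.86. The null call was lost without null 5 °C mouse 1, 2, 3, 4 or 5 or null 28 °C mouse 1, 2, 4 or 6 (adjusted p 0.053 to 0.11). It was also lost with the mean of the gene's 2 probe sets (effect 0.51, adjusted p = 0.146), with limma's trend and robust moderation (0.055), and without the 2 arrays highest in muscle markers (0.0608) or in B and T cell markers (0.0603). A dimmer probe set of the gene, with a mean of 5.67, was 0.31 higher in the cold in both genotypes.

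Cyp2c55, an arachidonic and linoleic acid oxidase in mouse, rose in WT mice and did not pass in null mice in the main fit. It read 7.63, 7.90, 8.04, 8.16 and 8.20 in null mice at 5 °C, and 8.20, 8.21, 8.32, 8.39 and 8.46 in WT mice at 5 °C. At 28 °C it ran from 6.93 through a median of 7.56 to 8.09 in null mice and from 7.02 through 7.71 to 7.93 in WT mice. The WT groups did not overlap and the null groups did. The effect was 0.50 in null mice (SE 0.18, adjusted p = 0.0797) and 0.67 in WT mice (SE 0.18, adjusted p = 0.013). Their difference, null minus WT, was −0.17 with an interval from −0.71 to 0.37. The null effect passed when only genes with a mean of 4 or more were tested (limma adjusted p = 0.0457). It also passed without null 28 °C mouse 6 (0.0205) or WT 28 °C mouse 1 (0.049). The other probe set of Cyp2c55 lay at 2.27 and changed by −0.04 in null mice and −0.06 in WT mice, so the level is uncertain. With the mean of both probe sets the WT effect was 0.31 (adjusted p = 0.147).

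The P450 genes of bile acid and oxysterol synthesis turn cholesterol into more soluble sterols. Of 6 measured, 0 were higher and 1 lower in null mice, and 0 were higher and 3 lower in WT mice, beside 6.33% and 8.3% of all genes that fell. With so few genes the count is a description. The list had a median difference of −0.17 in null mice and −0.30 in WT mice. The same median over all genes was −0.003 and 0.009.

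Cyp27a1, the mitochondrial sterol hydroxylase that makes oxysterols and bile acid precursors, fell in both genotypes. It read 7.46, 7.53, 7.61, 7.71 and 7.77 in null mice at 5 °C, and 7.46, 7.59, 7.62, 7.62 and 7.71 in WT mice at 5 °C. At 28 °C it ran from 7.74 through a median of 8.04 to 8.19 in null mice and from 7.96 through 8.10 to 8.27 in WT mice. The WT groups did not overlap, and among null mice the highest cold value lay above the lowest 28 °C value. The effect was −0.41 in null mice (SE 0.08, adjusted p = 0.00137) and −0.51 in WT mice (SE 0.08, adjusted p = 0.000107), or 0.754 and 0.702 of the 28 °C signal. The calls for Cyp27a1 held in both genotypes in every alternative fit run.

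Cyp39a1, an oxysterol hydroxylase known from liver, read 5.14, 5.33, 5.41, 5.52 and 5.57 in null mice at 5 °C, against a range from 5.38 through a median of 5.63 to 5.81 in null mice at 28 °C. WT mice at 5 °C read 4.58, 4.80, 5.24, 5.45 and 5.68, against a range from 5.57 through 5.63 to 5.80 in WT mice at 28 °C. WT mouse 2 in the cold stood within the 28 °C range while mice 1 and 5 were far below it. The effect was −0.23 in null mice (SE 0.15, adjusted p = 0.383) and −0.50 in WT mice (SE 0.15, adjusted p = 0.0185). Their difference, null minus WT, was 0.28 with an interval from −0.15 to 0.71. Without WT 5 °C mouse 1 or 5 the WT call was lost (adjusted p 0.0693 and 0.0657).

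Cyp46a1, the cholesterol hydroxylase best known from brain, read 3.61, 3.89, 3.92, 4.08 and 4.08 in null mice at 5 °C, against a range from 3.81 through a median of 4.03 to 4.30 in null mice at 28 °C. It read 3.83, 3.83, 3.89, 3.98 and 4.08 in WT mice at 5 °C, against a range from 4.07 through 4.24 to 4.64 in WT mice at 28 °C. These values sit at the near-background line and the groups overlap in both genotypes, among WT mice only by the highest cold array. The effect was −0.12 in null mice (SE 0.11, adjusted p = 0.576) and −0.35 in WT mice (SE 0.11, adjusted p = 0.0333). Their difference, null minus WT, was 0.23 with an interval from −0.10 to 0.55. The WT call was lost without WT 5 °C mouse 1, 2 or 3 or WT 28 °C mouse 1, 3 or 4 (adjusted p 0.0568 to 0.0847), with either other scaling of the arrays (0.0823 and 0.0744), with limma's trend and robust moderation (0.0594), with array weights (0.0539), and without the 2 arrays highest in muscle markers (0.0678) or in B and T cell markers (0.0737). The remaining members of the list, Cyp7b1, Cyp7a1 and Cyp8b1, did not pass in either genotype.

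Markers of some other cell types moved down with these genes. Of all genes 6.33% fell in null mice and 8.3% in WT mice. Of 12 macrophage markers 11 fell in null mice and 11 fell in WT mice, and of 10 markers of preadipocytes and matrix cells 8 fell in each genotype. The mean macrophage marker level ran from 7.58 to 7.83 in null mice and from 7.48 to 7.90 in WT mice at 5 °C, against 8.10 to 8.48 in null mice and 8.12 to 8.45 in WT mice at 28 °C. The preadipocyte and matrix level ran from 8.91 to 9.01 in null mice and from 8.86 to 9.06 in WT mice at 5 °C, against 9.43 to 9.60 in null mice and 9.44 to 9.67 in WT mice at 28 °C. Cold and 28 °C mice did not overlap in either level. Of 8 mast cell markers 0 passed in null mice and 4 fell in WT mice. Of 8 endothelial markers 1 fell in null mice, and 1 rose and 1 fell in WT mice. No skeletal muscle, B and T cell or epithelial marker passed in either genotype. Of the 5 adipocyte genes 2 fell in null mice and 1 fell in WT mice. The part of these cells in the decreases of Cyp1b1, Cyp27a1, Cyp39a1 and Cyp46a1 was not tested, and in whole fat fewer cells of a type and less RNA per cell cannot be told apart.

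**Figure D3:**
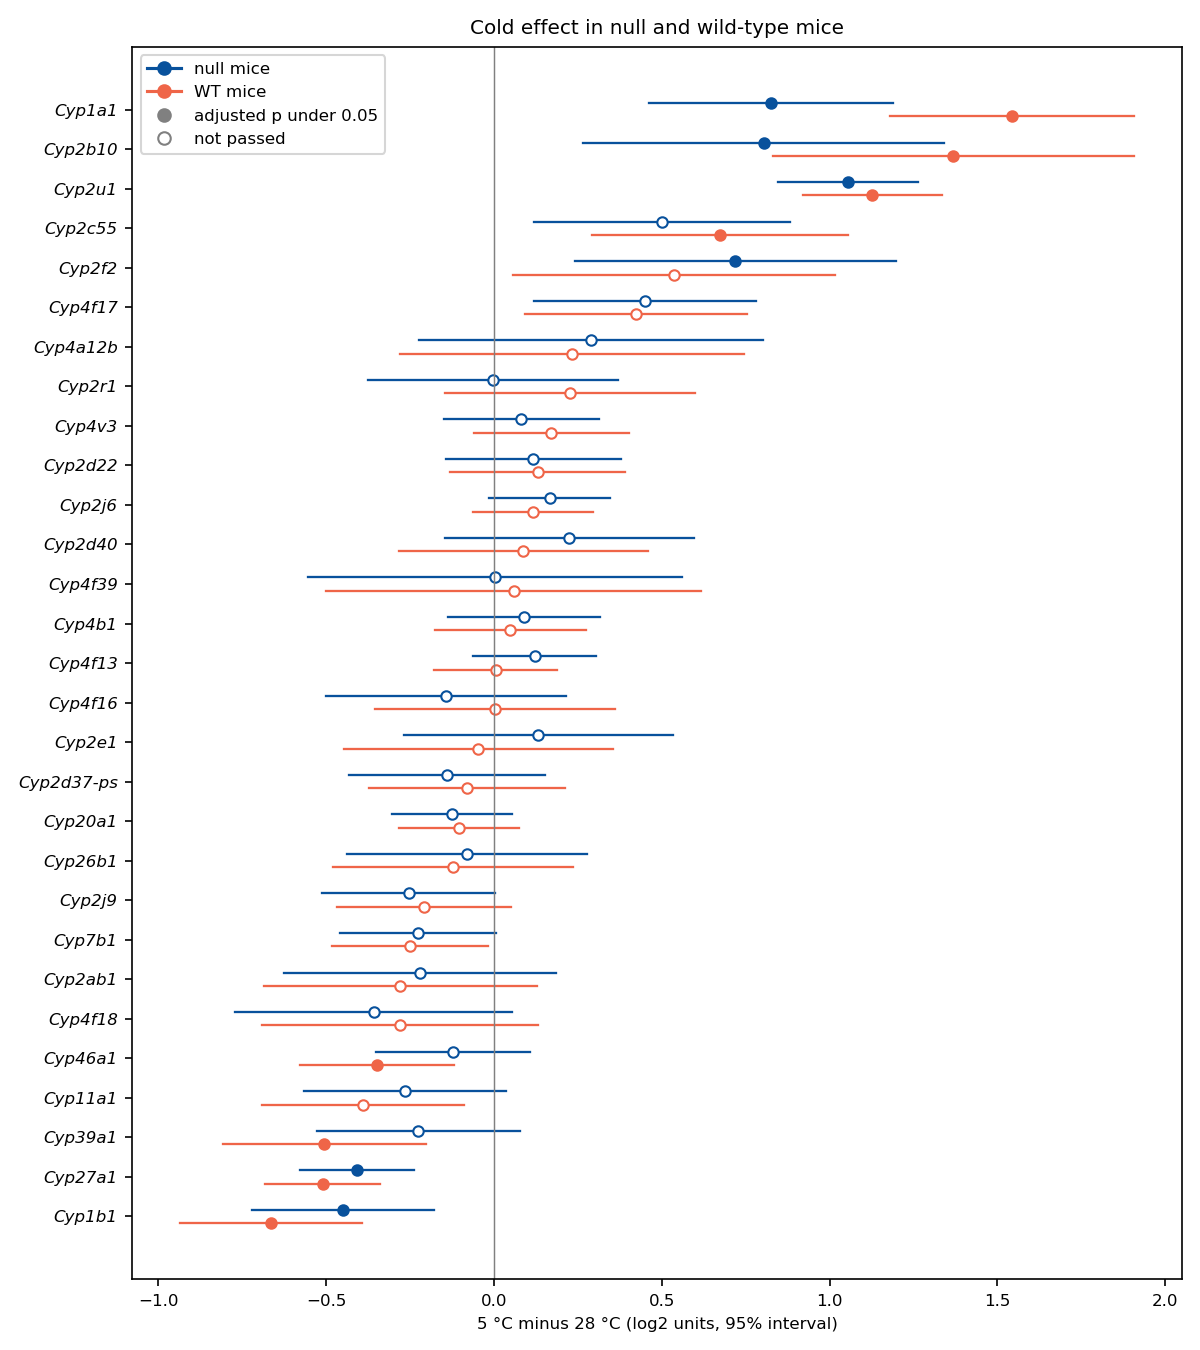
Difference of 5 °C minus 28 °C in log2 units (horizontal axis) with its 95% interval from the limma fit, for the 28 cytochrome P450 genes with a mean of 4 or more and for Cyp2b10, each in null mice (upper point) and WT mice (lower point). Filled points passed at an adjusted p under 0.05, with Cyp1a1, Cyp2b10 and Cyp2u1 at the top and Cyp27a1 and Cyp1b1 at the bottom.

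Cyp2e1, the brightest member, read 11.60, 11.62, 11.92, 11.93 and 12.02 in null mice at 5 °C, and 11.30, 11.65, 11.96, 12.07 and 12.14 in WT mice at 5 °C. At 28 °C it ran from 11.15 through a median of 11.58 to 12.45 in null mice and from 11.63 through 11.88 to 12.13 in WT mice. All groups overlapped. The effect was 0.13 in null mice (interval −0.27 to 0.53) and −0.05 in WT mice (interval −0.45 to 0.35), so changes inside those intervals could not be told from none. Among the other bright members Cyp20a1 changed by −0.12 and −0.10 (intervals −0.30 to 0.05 in null and −0.28 to 0.07 in WT mice).

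In the Cyp4 family 0 of 20 genes passed in null mice and 0 of 20 in WT mice, beside the 13.2% and 16.7% of all genes. At an unadjusted p under 0.05 there were 3 of 20 in null mice and 1 of 20 in WT mice, beside 5370 and 6272 of all 22180 genes. The family's cold effects ran from −0.36 to 0.52 in null mice and from −0.32 to 0.42 in WT mice, with medians of 0.08 and 0.05. None of the bright members passed. Cyp4b1, which activates plant toxins and oxidises fatty acids, differed by 0.09 in null mice (interval −0.14 to 0.32) and by 0.05 in WT mice (interval −0.18 to 0.28). Cyp4v3 differed by 0.08 (interval −0.15 to 0.31) in null mice and by 0.17 (interval −0.06 to 0.40) in WT mice. Cyp4f13, of the subfamily that breaks down leukotrienes, differed by 0.12 (interval −0.06 to 0.30) and 0.01 (interval −0.18 to 0.19). Cyp4f17, a further member of that subfamily named here after its values were seen, came nearest to the threshold, at 0.45 in null mice (adjusted p = 0.067) and 0.42 in WT mice (adjusted p = 0.0737). It passed in both genotypes with array medians subtracted (0.0481 in null and 0.0454 in WT mice) and when only genes with a mean of 4 or more were tested (0.0374 and 0.0434).

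The Cyp4a genes, which PPARα drives in liver, gave little signal in this fat where measured. Cyp4a10 and Cyp4a32 have no value of their own here, so nothing is said of them. The 6 measured Cyp4a genes had means from 2.17 to 4.20, and only Cyp4a12b reached 4. Cyp4a12b read 3.62, 4.25, 4.27, 4.45 and 5.05 in null mice at 5 °C, and 3.97, 4.10, 4.15, 4.45 and 5.08 in WT mice at 5 °C. At 28 °C it ran from 3.38 through a median of 4.15 to 4.52 in null mice and from 3.81 through 4.07 to 4.58 in WT mice, and all groups overlapped. Cyp4a14, strongly inducible in liver, averaged 2.31 ± 0.51 in null mice and 2.11 ± 0.37 in WT mice at 5 °C (SD, n = 5 each), and 2.57 ± 0.28 in null mice and 2.31 ± 0.30 in WT mice at 28 °C (SD, n = 6 each). The others, Cyp4a12a (2.83), Cyp4a30b (2.68), Cyp4a31 (2.63) and Cyp4a29 (2.17), were as dim, and 0 of 6 passed in any of the 5 comparisons. The null minus WT difference over the 6 genes ran from −0.18 to 0.36 at 5 °C and from −0.08 to 0.25 at 28 °C. Cyp4a31 alone had an unadjusted p under 0.05 in the cold, at −0.32 in null mice (adjusted p = 0.0832), and it passed with the replicate number as a block (0.0373). Signal this near background limits what the test can detect, and this does not show that the genes were unaltered.

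In the Cyp2 family 3 of 50 genes rose in null mice and 3 of 50 in WT mice, 6.0% in each, near the 6.88% and 8.35% of all genes that rose. In each genotype 0 of 50 fell, beside 6.33% of all genes in null mice and 8.3% in WT mice. Only 11 of the 50 had a mean of 4 or more, so these counts are a description. At an unadjusted p under 0.05 there were 9 of 50 in null mice and 8 of 50 in WT mice in either direction, beside 5370 and 6272 of all 22180 genes. Many Cyp2 genes lie in clusters, and Cyp2b10, Cyp2f2 and Cyp2c55 had neighbours that did not pass. Cyp2b10 and Cyp2f2 are 2 of 13 members within 1.36 Mb on chromosome 7, of which only Cyp2f2 had a mean of 4 or more. Cyp2c55 is 1 of 15 Cyp2c members on chromosome 19, the other 14 all being under 4. Of 7 Cyp2j genes on chromosome 4, whose enzymes make epoxides of arachidonic acid, 2 had a mean of 4 or more and 0 passed, with 1 at an unadjusted p under 0.05 in each genotype. Of 10 Cyp2d genes on chromosome 15, 3 had a mean of 4 or more and 0 passed for cold, with 1 in null mice and 0 in WT mice at an unadjusted p under 0.05.

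Genes of retinoic acid breakdown and of vitamin D handling showed no call, and 0 of them had an unadjusted p under 0.05. The measured retinoic acid genes were 3, of which Cyp26b1 had the highest mean (4.78) with differences of −0.08 in null mice and −0.12 in WT mice. The 3 vitamin D genes were led by Cyp2r1, the vitamin D hydroxylase of liver (4.75), with differences of −0.003 in null mice and 0.23 in WT mice. Cyp11a1, which makes pregnenolone from cholesterol, averaged 3.87 ± 0.27 in null mice and 3.97 ± 0.14 in WT mice at 5 °C (SD, n = 5 each), and 4.14 ± 0.27 in null mice and 4.36 ± 0.27 in WT mice at 28 °C (SD, n = 6 each). It did not pass, at −0.26 in null mice (limma adjusted p = 0.283) and −0.39 in WT mice (0.07). The WT effect passed when only genes with a mean of 4 or more were tested (0.0405). It also passed without null 28 °C mouse 6 or WT 28 °C mouse 2 or 5 (0.031 to 0.049). A dimmer probe set of Cyp11a1, with a mean of 3.42, went the other way in WT mice, at 0.23, and was at −0.006 in null mice.

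The difference of the cold effects, null minus WT, asks whether a gene's response depended on PPARα. None of the 97 members passed it (limma), and 0% of all genes did, with 6 members at an unadjusted p under 0.05 and 1137 of all genes. Besides Cyp1a1, the smallest limma p values belonged to Cyp2c68 at −0.34 (SE 0.12, adjusted p = 0.963) and Cyp2j5 at 0.51 (SE 0.19, adjusted p = 0.963). Cyp2c68 had a mean of 1.95 and Cyp2j5 of 2.49, and so both lie at background. Cyp2b10 had a difference of −0.57 with an interval from −1.32 to 0.19, which holds both 0 and a difference larger than the null cold effect itself. Intervals as wide as this do not show that null and WT mice responded alike.

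The genotype comparisons set null against WT mice at 1 temperature. At 5 °C 1 of 97 members passed, beside 0.149% of all genes (0.108% lower in null mice). At 28 °C 1 of 97 passed, beside 0.194% of all genes (0.149% lower in null mice). Cyp2d22, a Cyp2d enzyme of the subfamily that handles many drugs and amines, was the member in each case. It read 6.34, 6.50, 6.91, 6.97 and 7.00 in null mice at 5 °C, against 7.18, 7.31, 7.48, 7.57 and 7.59 in WT mice at 5 °C. At 28 °C it ran from 6.31 through a median of 6.63 to 6.89 in null mice, against 7.04 through 7.29 to 7.49 in WT mice. All null mice lay below all WT mice at the same temperature. The difference was −0.68 at 5 °C (SE 0.13, adjusted p = 0.0291) and −0.67 at 28 °C (SE 0.12, adjusted p = 0.0113), or 0.624 and 0.63 of the WT signal, and it did not pass for cold (0.12 in null mice and 0.13 in WT mice).

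Cyp2d22 lies on chromosome 15 at chr15:82370527-82380260 (GRCm38.p6), 3.35 Mb from Ppara at chr15:85734910-85806851. The other 9 Cyp2d genes measured lie in the same 0.42 Mb cluster and did not pass, with null minus WT differences from −0.15 to 0.18 at 5 °C and from −0.09 to 0.27 at 28 °C, and 7 of them were under 4. The electron carrier gene Cyb5r3, a cytochrome b5 reductase 2.56 Mb from Ppara, also passed at both temperatures. It read 9.74, 9.77, 9.80, 9.83 and 10.03 in null mice at 5 °C, against 10.87, 10.94, 10.99, 11.07 and 11.10 in WT mice at 5 °C. At 28 °C it ran from 9.36 through a median of 9.65 to 9.89 in null mice, against 10.67 through 10.95 to 11.00 in WT mice, again without overlap. The difference was −1.16 at 5 °C (SE 0.10, adjusted p = 8.97e-07) and −1.25 at 28 °C (SE 0.09, adjusted p = 2.15e-08). Of the genes that passed between genotypes 13 of 33 at 5 °C and 20 of 43 at 28 °C were on chromosome 15, which holds 839 of all 22180 genes, 3.78%. Loss of the receptor and sequence differences linked to the disrupted gene cannot be told apart in these groups. The 5 °C call of Cyp2d22 was lost in the limma fit of only the groups compared (adjusted p = 0.277). It was also lost without null 5 °C mouse 1 or 3 or WT 5 °C mouse 1, 4 or 5 (adjusted p 0.0879 to 0.105). The same held without the 2 arrays highest in muscle markers (0.0735), an alternative chosen after seeing the data. The mean muscle level was 7.05 in null mice and 7.40 in WT mice at 5 °C, and 6.70 in null mice and 8.04 in WT mice at 28 °C, and its part in the difference was not tested.

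**Figure D4:**
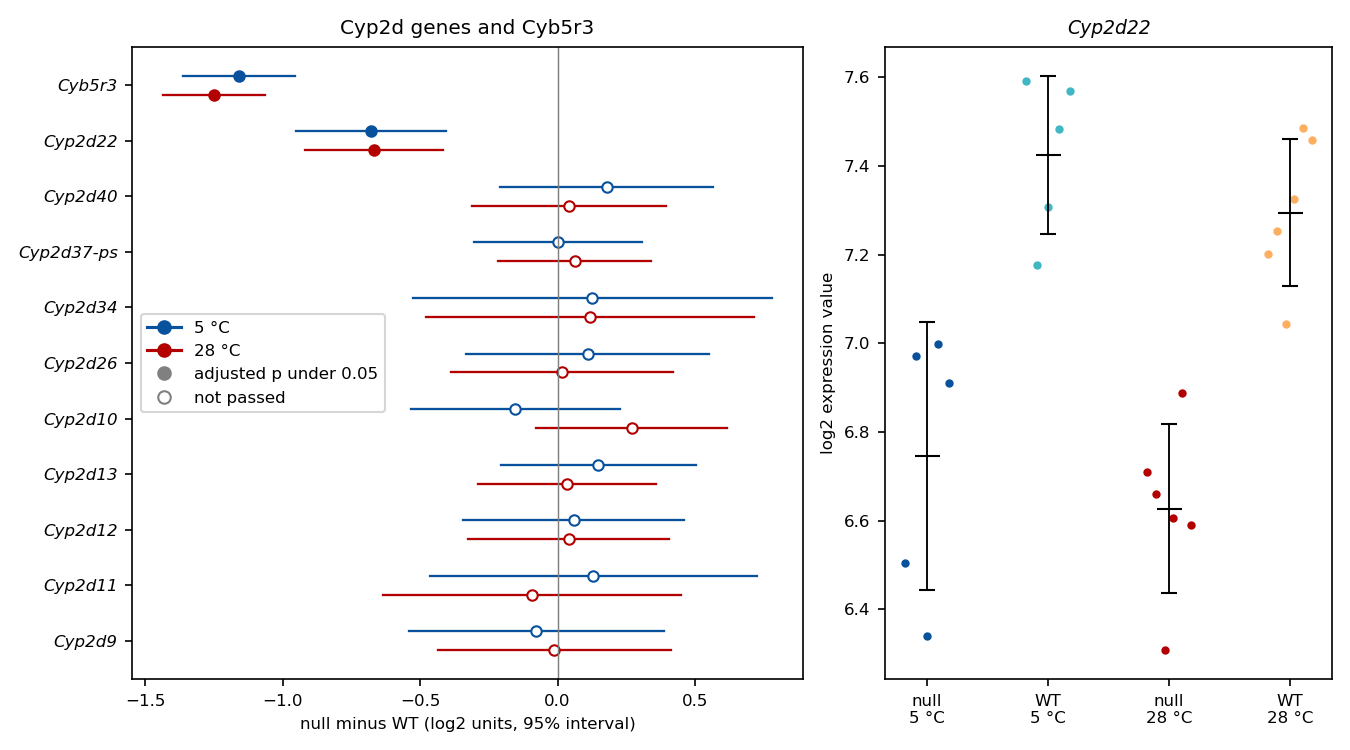
Left, null minus WT difference in log2 units (horizontal axis) with its 95% interval for Cyb5r3 and the 10 Cyp2d genes at 5 °C (upper point) and 28 °C (lower point), filled where the adjusted p was under 0.05, which holds for Cyb5r3 and Cyp2d22 at both temperatures. Right, log2 expression value of Cyp2d22 per array with mean ± SD (n = 5, 5, 6 and 6), where every null array lies below every WT array of its temperature.

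Other members did not pass between genotypes, and the values nearest to it were these. At 5 °C Cyp2w1 (mean 3.03) was 0.49 higher in null mice (SE 0.16, adjusted p = 0.481) with no overlap, and Cyp3a16 (mean 1.73) was 0.42 higher (SE 0.15, adjusted p = 0.574), both at background. Cyp1a1 was at −0.48 at 5 °C (SE 0.18, adjusted p = 0.604) and 0.23 at 28 °C (adjusted p = 0.853). At 28 °C Cyp2f2 was at −0.65 (SE 0.22, adjusted p = 0.47) and Cyp2j5 at −0.40 (SE 0.13, adjusted p = 0.429).

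Genes that work with P450 enzymes were read from lists chosen with earlier results of these data known. Of all genes 6.88% rose and 6.33% fell in null mice, and 8.35% rose and 8.3% fell in WT mice. These lists hold so few genes that 1 call more or less decides their share, and nothing is read from the counts. Of 9 measured electron-transfer and haem partners, 2 rose in null mice and 1 in WT mice, and 0 fell. Cyb5b, a cytochrome b5 of the outer mitochondrial membrane, rose by 0.59 in null mice (SE 0.12, adjusted p = 0.00203) and by 0.63 in WT mice (SE 0.12, adjusted p = 0.000886). Fdx1, the ferredoxin that feeds mitochondrial P450 enzymes such as Cyp27a1, rose by 0.48 in null mice (SE 0.08, adjusted p = 0.00036) and was at 0.21 in WT mice (SE 0.08, adjusted p = 0.102). The general reductase Por has no value here.

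Of 6 genes of eicosanoid synthesis and epoxide breakdown, 1 rose and 3 fell in each genotype. Ephx2, the soluble hydrolase that opens the fatty acid epoxides made by Cyp2c and Cyp2j enzymes, read 10.48, 10.60, 10.79, 10.89 and 10.93 in null mice at 5 °C, and 10.43, 10.50, 10.63, 10.69 and 10.87 in WT mice at 5 °C. At 28 °C it ran from 9.38 through a median of 9.65 to 10.01 in null mice and from 9.60 through 9.77 to 9.85 in WT mice, so cold and 28 °C mice did not overlap. It rose by 1.07 in null mice (SE 0.12, adjusted p = 2.53e-06) and by 0.88 in WT mice (SE 0.12, adjusted p = 2.25e-05). Ephx1, the microsomal epoxide hydrolase, fell by 0.45 and 0.32 on the log2 scale in null and WT mice. Tbxas1, thromboxane synthase, fell by 0.25 and 0.47, and Ptgis, prostacyclin synthase, fell by 0.49 and 0.40. Both are P450 enzymes whose symbols do not start with Cyp. The macrophage and matrix levels given above moved with these decreases, and their part was not tested.

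Of 8 sensors and partners that control P450 genes, 1 rose and 1 fell in null mice, and 0 rose and 1 fell in WT mice. Arnt, the partner of Ahr, fell by 0.19 in null mice and by 0.20 in WT mice (adjusted p = 0.045 and 0.035). The oxysterol receptor gene Nr1h3 rose by 0.32 in null mice (adjusted p = 0.03) and was at 0.26 in WT mice (adjusted p = 0.069). Of 9 genes that process the products of fatty acid end oxidation, 2 rose in null mice (Adh1, an alcohol dehydrogenase, by 0.31, and Acot3, a peroxisomal thioesterase near background with a mean of 3.62, by 0.45). In WT mice 2 rose and 1 fell. Ehhadh, the bifunctional enzyme of peroxisomal oxidation and a PPARα target of liver, was at 0.59 in null mice (adjusted p = 0.0536) and rose by 0.92 in WT mice (adjusted p = 0.00208). Also in WT mice Acot4, a second thioesterase, rose by 0.61, and Adh7, a retinol and alcohol dehydrogenase, fell by 0.80 on the log2 scale.

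**Figure D5:**
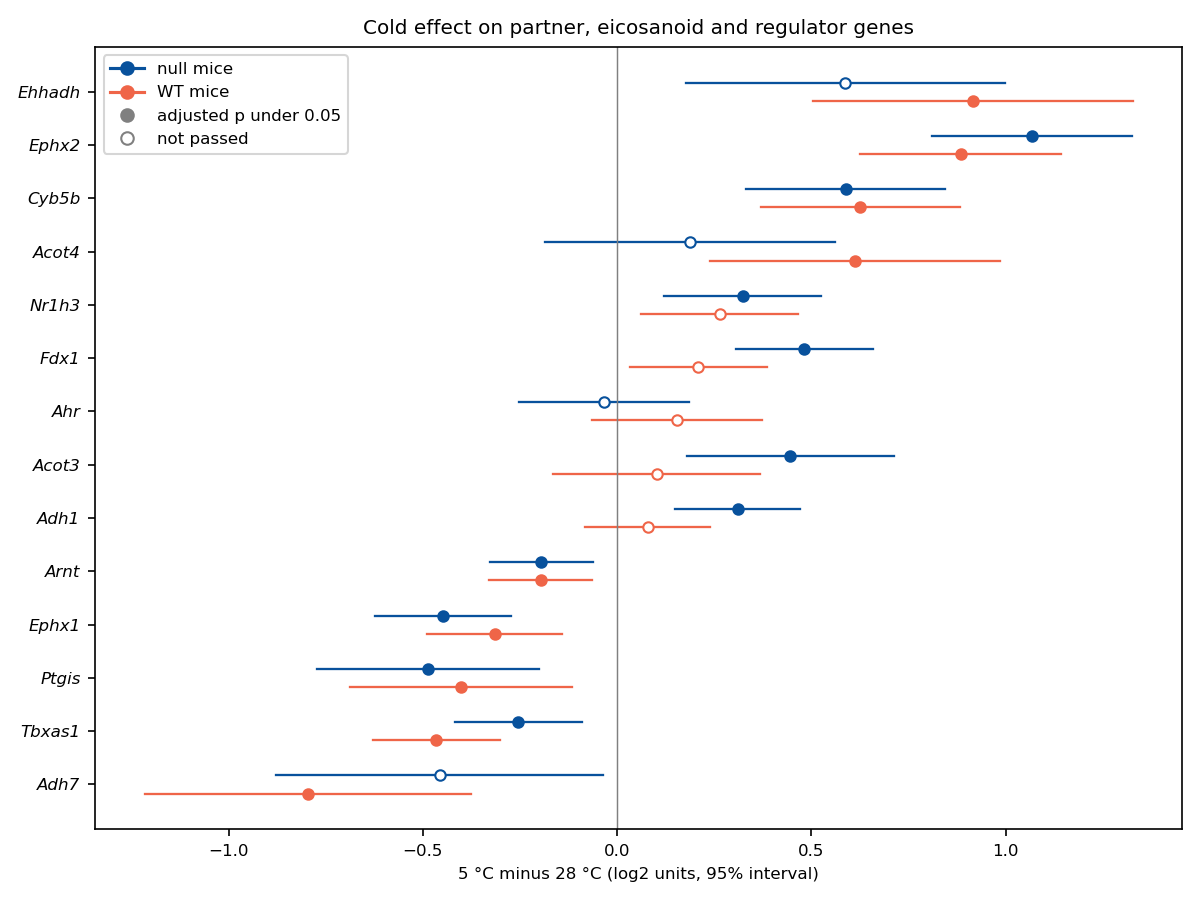
Difference of 5 °C minus 28 °C in log2 units (horizontal axis) with its 95% interval for the 13 listed partner, eicosanoid, regulator and acid-handling genes that passed in at least 1 genotype, and for Ahr, in null mice (upper point) and WT mice (lower point). Filled points passed at an adjusted p under 0.05, with Ephx2 and Cyb5b filled on the right and Ephx1, Ptgis, Tbxas1 and Arnt filled on the left in both genotypes.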

How the data were processed

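Inguinal fat was measured on 22 arrays, 1 per mouse, using 100 ng of RNA (integrity number over 8, per the labels' protocols). The authors' deposited data hold a log2 expression value for each probe set, produced with RMA according to the submitters' processing notes. The RMA version and the build behind the probe annotation are not given here. The values were used with no further normalization. The 101 Cyp probe sets with 1 symbol stood for 97 genes, and all 97 matched RefSeq (GRCm38.p6) by gene ID.

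All 22180 genes were fitted together with limma 3.58.1 in R 4.3.3 over the 4 groups (18 residual and 3.35 prior degrees of freedom). Adjusted p-values are Benjamini-Hochberg values over every gene, with a threshold of 0.05. SE and 95% intervals come from this fit, and its p-values set each difference against the spread between these mice within the groups, as moderated by limma. The members, lists and tests were chosen with earlier results of these data known.

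Values are given for the 10 brightest members, all that passed any of the 5 comparisons, the 3 smallest p in the cold difference and in each genotype comparison, every Cyp4a gene, and the 3 members on each side of a mean of 4. Cyp4f17, Cyp26b1, Cyp2r1 and Cyp2j8 were named after their values were seen. Replicate numbers 1 to 5 gave 30 same-number pairs, of which 5 correlated above 0.1 (r −0.25 to 0.35). The numbers were not treated as pairing mice in the main fit. These correlations alone cannot exclude a shared litter or cage. Alternatives changed the scaling, the filter on dim genes, the use of several probe sets, limma's moderation and weights, the groups in the fit, the replicate block and the arrays left out. Software also included data.table (1.17.8), Python 3.11.15, pandas 2.3.3 and matplotlib 3.10.9.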

Additional observations from a re-analysis of the deposited data

Results flagged for a closer look

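Among 120 groups of 5 or 6 arrays (30 named genes in 4 groups), 8 held 1 array far from the rest of its group by Dixon's test, and chance gives such a gap in about 1 in 20 groups. Mouse 2 of the null 5 °C group was high in Cyp2f2 at 10.05 (next 9.66) and in Cyp4v3 at 8.64 (next 8.37). WT 5 °C mouse 4 was high in Cyp4v3 at 8.72 (next 8.42). WT 5 °C mouse 3 was high in Cyp1a1 at 5.70 (next 4.98) and low in Cyp2w1 at 2.47 (next 2.84). WT 5 °C mouse 1 was low in Cyp2ab1 at 3.77 (next 3.97). Null 28 °C mouse 6 was low in Cyp11a1 at 3.62 (next 4.10) and high in Cyp4a12a at 3.59 (next 2.76).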

How the results depend on the processing

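The counts of P450 genes that passed were 6 (null cold effect), 8 (WT cold effect), 0 (difference of the cold effects), 1 (genotypes at 5 °C) and 1 (genotypes at 28 °C). Fitting only the groups compared gave 3 for the null cold effect and 0 for the genotypes at 5 °C, and the fit without the 2 arrays highest in muscle markers, chosen after seeing the data as was the one for B and T cell markers, also gave 0 for the genotypes at 5 °C. Leaving out each array in turn gave 3 to 7, 7 to 9, 0 to 0, 0 to 1 and 1 to 1 in the same order. With the replicate block the counts were 5, 8, 0, 1 and 1, and with it the null calls of Cyp2f2 (adjusted p = 0.0728) and Cyp2b10 (0.0878) and the WT call of Cyp46a1 (0.0699) were lost, while Cyp4a31 in null mice (0.0373) and Cyp2j8 in WT mice (0.0463), both under 4, passed. A threshold of 5 in place of 4 left 15 members with signal, and one of 3.5 left 32. For single genes that passed, 469 alternative values kept direction and side of the threshold, 57 kept direction and missed it, and 0 turned. Fitting only the groups compared lost Cyp2f2 (0.107), Cyp1b1 (0.061) and Cyp2b10 (0.0651) in null mice and Cyp39a1 (0.0683) and Cyp46a1 (0.0507) in WT mice. That fit also lost Cyp2d22 between genotypes at 5 °C (0.277). Cyp2u1 and Cyp1a1 passed in both genotypes, and Cyp2d22 at 28 °C, in each alternative run. Signal near background limits what can be said of the 69 members under 4.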
